A study of Caenorhabditis elegans with 15 samples.

Results

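The BTB and MATH domain genes are the C. elegans genes whose symbol is btb, bath or math followed by a number, and 103 of the 17138 genes with a probe set of their own on the array met this rule. They comprised 18 btb genes, named for a BTB domain, 38 bath genes, named for a BTB and a MATH domain, and 47 math genes, named for a MATH domain. Each gene was read by its brightest probe set that carries no other gene symbol. The symbol rule and the choice of probe sets used no difference between times. The group itself was chosen with earlier results of these data known. The time of highest mean and the share of transient genes belong to how this gene group was defined, and they are given as description only. Of the 103 genes, 24 are pseudogenes in the RefSeq gene table of assembly WBcel235.

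All samples came from wild-type N2 hermaphrodites injected with dsRNA for mex-1, pal-1 and lit-1, which triggers RNA interference in mother and embryo. Embryos taken out at the 2- to 4-cell stage were kept at room temperature for 0, 1, 2, 3 or 4 h before total RNA was extracted, and each time had 3 arrays, named A, B and C here. Every array therefore carries the same 3 dsRNAs, and no embryos without them were used here. The labels give neither the number of embryos in a sample nor the number of mothers, and each sample is a mixture of all blastomeres, in which fewer cells of a type and less RNA per cell cannot be told apart.

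As background, BTB proteins serve as substrate adaptors of ubiquitin ligases built on the cullin CUL-3: the BTB domain binds the cullin, and a further domain, often MATH or Kelch, holds the protein to be ubiquitinated and degraded. The best known example in this embryo is MEL-26, a protein with both domains that directs the katanin subunit MEI-1 to destruction once meiosis is over. Activity of the cullin depends on attachment of the ubiquitin-like protein NED-8. Families of BTB and MATH domain genes are expanded in Caenorhabditis, and most of the numbered members have no assigned substrate.

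Levels are the deposited log2 values, in which 1 unit is a doubling of signal, and levels of different genes are not set against each other, because probe sets differ in brightness. The highest value among 15 probe sets for bacterial control transcripts, 3.22, served as a background mark. A further 12 bacterial control probe sets reached 5.98 and were not used for the mark, and 11 of the 103 genes had a mean over 15 arrays above that value. The array medians lay between 3.17 and 3.42. Arrays of the same time correlated at 0.962 to 0.985 over all probe sets, except that 1 h B correlated at 0.914 and 0.915 with the other 1 h arrays. The time tag of 1 h B reads 2 h and that of 1 h C reads 3 h, in conflict with their titles, and the titles were used. 1 h C correlated at 0.981 with 1 h A and at 0.871 to 0.882 with the 3 h arrays. 1 h B correlated at 0.850 to 0.878 with the 2 h arrays. Summed yolk protein transcripts, a marker of adult gut, reached 10.45 on 1 h B against 5.58 to 7.27 on the arrays of the other times, with vit-2 under the background mark on every array. Of 10 maternal transcripts chosen as markers of the early embryo all 10 fell between 0 h and 4 h, and of 6 early zygotic transcripts 5 rose between 0 h and 1 h.

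Of the 103 genes, 23 changed over the 5 times by the F test of the linear model (22.3%), against 20.5% of all probe sets. A call throughout is an adjusted p (Benjamini-Hochberg, over the 22548 probe sets tested) under 0.05. The changed genes were 8 of 18 btb genes and 15 of 38 bath genes, and none of the 47 math genes changed, although 4 of these had an unadjusted p under 0.05. The mean over 15 arrays lay above the background mark for 31 genes, namely 13 btb, 16 bath and 2 math genes. All 23 changed genes had at least 1 time mean above the mark, and 4 of them, bath-1, bath-15, bath-20 and bath-29, had an overall mean below it. Among the 24 pseudogenes 1 changed, btb-13.

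**Figure D1:**
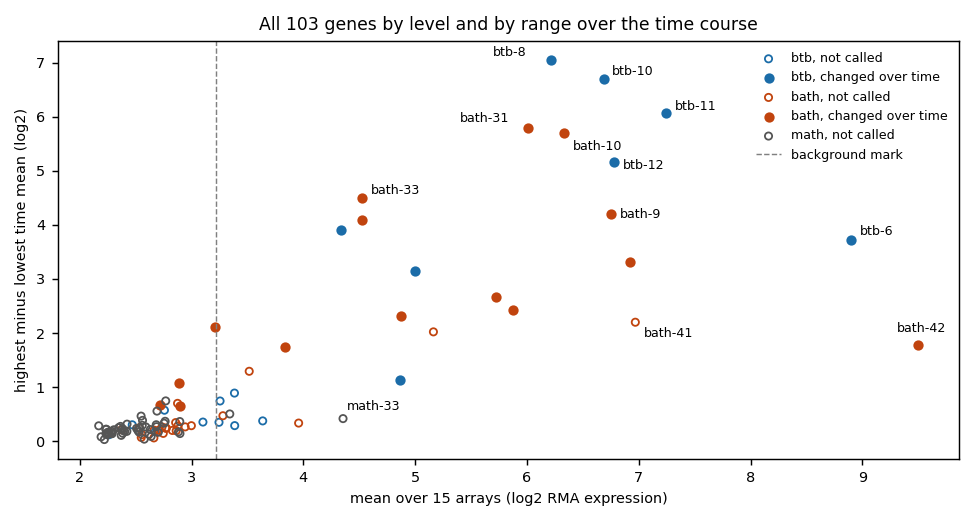
Mean level of each of the 103 genes over 15 arrays (log2, horizontal axis) against the range of its 5 time means (log2, vertical axis), with the background mark drawn. The math genes lie at ranges of 0.03 to 0.74, while 8 btb and 16 bath genes have a range above 1.

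The changed genes peaked at different times. As a description, the highest mean fell at 0 h for 9 of the 23, at 1 h for 2, at 2 h for 7, at 3 h for 2 and at 4 h for 3. These shares were 39.1%, 8.7%, 30.4%, 8.7% and 13% from 0 h to 4 h. Among all 4630 changed probe sets they were 41%, 9.85%, 19.9%, 12.1% and 17.2%. A gene was called transient when it passed the test both for a rise from 0 h to 1, 2 or 3 h and for a fall from that time to 4 h. This held for 7 of the 103 genes (6.8%), against 3.10% of all probe sets, and the 7 were btb-6, btb-8, btb-10, btb-11, btb-13, bath-31 and bath-33. With the rise taken at 1 h this held for 6 genes, against 1.64% of all probe sets, with 2 h for 7, against 2.30%, and with 3 h for 3, against 0.554%. Because the definition of the group used these shares, nothing is read from them.

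**Figure D2:**
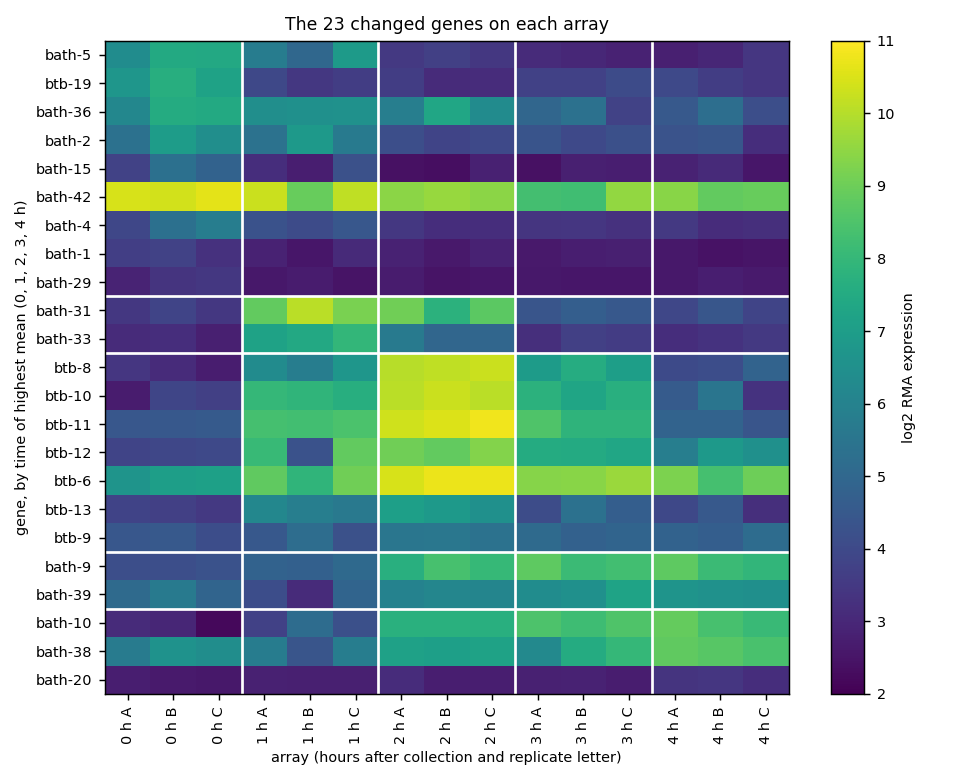
Level of the 23 changed genes on each of the 15 arrays, as log2 expression in colour, with arrays in order of time and genes grouped by the time of their highest mean. The genes highest at 0 h and those highest at 2 h form the largest groups, 9 and 7 of the 23, and bath-31 and bath-33 are highest at 1 h. Among all changed probe sets 41% were highest at 0 h and 19.9% at 2 h.

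The transient btb genes had their highest mean at 2 h in each case, and btb-8, btb-10 and btb-11 rose by more than 6 log2 units before they fell. btb-8 read 3.43, 3.10 and 2.74 at 0 h, 6.35, 5.83 and 6.71 at 1 h, 10.02, 10.14 and 10.27 at 2 h, 6.94, 7.56 and 7.05 at 3 h and 4.02, 4.14 and 4.88 at 4 h. All 5 times were separated on every array, in the order 0, 4, 1, 3 and 2 h from lowest to highest. btb-8 rose by 3.21 (SE 0.28, adjusted p = 7.4e-06) from 0 h to 1 h and was higher at 2 h than at 0 h by 7.05 (SE 0.28, adjusted p = 3.4e-09) on the log2 scale. By 4 h it had changed by -5.80 (SE 0.28, adjusted p = 4.1e-08) from 2 h, and it was still above 0 h by 1.26 (SE 0.28, adjusted p = 0.0064). Its mean at 0 h, 3.09 ± 0.35 (SD, n = 3), lay below the background mark, so that the size of the rise is uncertain.

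btb-10, whose probe set may cross-hybridise by its suffix, read 2.70, 3.86 and 3.72 at 0 h, 7.99, 7.90 and 7.65 at 1 h, 10.06, 10.27 and 10.07 at 2 h, 7.80, 7.27 and 7.69 at 3 h and 4.58, 5.50 and 3.30 at 4 h. Its 1 h and 3 h arrays overlapped, as did its 0 h and 4 h arrays, and the 2 h arrays lay above all others. The log2 differences were 4.42 (SE 0.44, adjusted p = 2.7e-05) for 1 h against 0 h and 6.70 (SE 0.44, adjusted p = 2.5e-07) for 2 h against 0 h. The difference of 4 h from 2 h was -5.67 (SE 0.44, adjusted p = 2.6e-06). At 4 h the gene stood 1.03 (SE 0.44, adjusted p = 0.15) from its 0 h level, which did not pass the test.

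btb-11 read 4.45, 4.49 and 4.57 at 0 h, 8.35, 8.29 and 8.44 at 1 h, 10.35, 10.53 and 10.81 at 2 h, 8.53, 7.86 and 7.86 at 3 h and 4.86, 4.85 and 4.38 at 4 h. Again the 2 h arrays lay above all others, and the 0 h and 4 h arrays overlapped. It was 66.7-fold higher at 2 h than at 0 h, with a log2 difference of 6.06 (SE 0.19, adjusted p = 6.3e-10), after a first step of 3.86 (SE 0.19, adjusted p = 4.4e-08) by 1 h. The difference of 4 h from 2 h was -5.86 (SE 0.19, adjusted p = 2.4e-09), and that of 4 h from 0 h was 0.20 (SE 0.19, adjusted p = 0.56) and did not pass.

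btb-13, which is annotated as a pseudogene, read 3.80, 3.72 and 3.48 at 0 h, 6.18, 5.85 and 5.64 at 1 h, 7.08, 6.83 and 6.52 at 2 h, 4.1, 5.34 and 4.68 at 3 h and 3.96, 4.52 and 3.22 at 4 h. Its 2 h arrays lay above its 1 h arrays, these above its 3 h arrays, and the 0 h and 4 h arrays overlapped. It was higher at 2 h than at 0 h by 3.14 (SE 0.34, adjusted p = 2.1e-05) and at 4 h differed from 2 h by -2.91 (SE 0.34, adjusted p = 0.0001). btb-6 read 6.65, 7.04 and 7.12 at 0 h, 8.81, 7.90 and 9.03 at 1 h, 10.46, 10.73 and 10.75 at 2 h, 9.37, 9.40 and 9.63 at 3 h and 9.23, 8.35 and 9.01 at 4 h. For btb-6 the 0 h arrays lay below and the 2 h arrays above all others, while the 1 h and 4 h arrays overlapped. Its log2 differences were 3.71 (SE 0.28, adjusted p = 9.8e-07) for 2 h against 0 h and -1.78 (SE 0.28, adjusted p = 0.0015) for 4 h against 2 h. At 4 h btb-6 was still above 0 h by 1.93 (SE 0.28, adjusted p = 0.0003).

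A further pair of btb genes changed over time with their highest mean at 2 h and were not called transient. btb-12 read 3.85, 3.91 and 4.00 at 0 h, 8.06, 4.28 and 8.82 at 1 h, 9.05, 8.85 and 9.34 at 2 h, 7.55, 7.49 and 7.31 at 3 h and 5.86, 6.82 and 6.53 at 4 h. Array 1 h B lay close to the 0 h arrays, and both other 1 h arrays lay near the 2 h arrays. The log2 difference of 1 h from 0 h was 3.14 (SE 0.83, adjusted p = 0.031), and without 1 h B it was 4.52 (adjusted p = 6.9e-07). Without 1 h A, 1 h C or any one of the 0 h arrays this call ended, and the difference was 2.63 without 1 h A and 2.25 without 1 h C. The 2 h level exceeded the 0 h level by 5.16 (SE 0.83, adjusted p = 0.00063). The difference of 4 h from 2 h, -2.67 (SE 0.83, adjusted p = 0.096), missed the threshold, and without 1 h B or without 1 h C btb-12 was called transient. btb-9 read 4.45, 4.51 and 4.13 at 0 h, 4.47, 5.22 and 4.22 at 1 h, 5.54, 5.55 and 5.40 at 2 h, 5.10, 4.81 and 4.89 at 3 h and 4.83, 4.70 and 5.17 at 4 h, with the 2 h arrays above all others and a difference of 1.13 (SE 0.22, adjusted p = 0.0028) from 0 h. Without 1 h B, or without both 1 h B and 1 h C, btb-9 was called transient as well. Its call over the 5 times ended without 0 h C, 2 h A or 2 h B. Centring arrays on the hybridisation controls also ended that call.

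**Figure D3:**
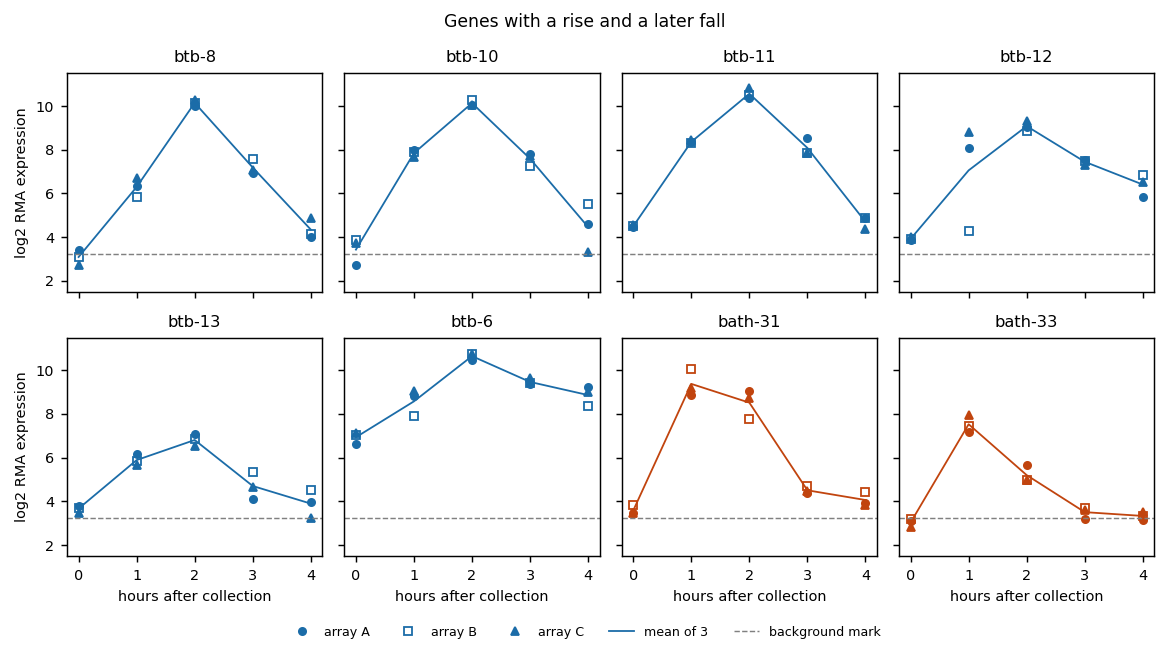
Level of the 7 transient genes and of btb-12 on each array (log2, vertical axis) against hours of incubation (horizontal axis), with points for arrays, lines through the means of 3 arrays and the background mark. The btb genes are highest at 2 h, and bath-31 and bath-33 have their highest mean at 1 h.

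The transient bath genes, bath-31 and bath-33, had their highest mean at 1 h. bath-31 read 3.45, 3.85 and 3.46 at 0 h, 8.85, 10.08 and 9.20 at 1 h, 9.04, 7.79 and 8.73 at 2 h, 4.38, 4.69 and 4.46 at 3 h and 3.92, 4.43 and 3.84 at 4 h. The 1 h and 2 h arrays overlapped and lay above all others. It was 55.4-fold higher at 1 h than at 0 h, a log2 difference of 5.79 (SE 0.34, adjusted p = 1.9e-07). The step from 1 h to 2 h, -0.86 (SE 0.34, adjusted p = 0.16), did not pass, and the step from 2 h to 3 h was -4.01 (SE 0.34, adjusted p = 1.3e-05).

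bath-33 read 3.12, 3.18 and 2.81 at 0 h, 7.19, 7.44 and 7.97 at 1 h, 5.69, 4.96 and 4.96 at 2 h, 3.21, 3.71 and 3.61 at 3 h and 3.17, 3.33 and 3.51 at 4 h. Its 1 h arrays lay above the 2 h arrays, and these above all others. It rose in the first hour by 4.50 (SE 0.24, adjusted p = 8.0e-08) on the log2 scale, from 0 h arrays that all lay below the background mark, so that the size is uncertain. It already fell in the second hour, with a difference of -2.33 (SE 0.24, adjusted p = 3.8e-05). The difference of 4 h from 1 h was -4.20 (SE 0.24, adjusted p = 1.0e-07), and 4 h stood 0.30 (SE 0.24, adjusted p = 0.47) from 0 h, which did not pass. A second, dimmer probe set of bath-33 was also transient, with a difference of 1.66 (SE 0.20, adjusted p = 0.00014) between 1 h and 0 h. The calls of all 7 transient genes held when any 1 of the 15 arrays was left out. With the 2 doubtful arrays grouped by their time tags, bath-33 and btb-6 were no longer called transient. Centring arrays on the hybridisation controls also ended the call of btb-6, with -2.01 (adjusted p = 0.17) between 4 h and 2 h.

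Other bath genes rose and stayed high. bath-10 read 3.10, 2.97 and 2.20 at 0 h, 3.73, 5.18 and 4.20 at 1 h, 7.71, 7.71 and 7.68 at 2 h, 8.48, 8.22 and 8.51 at 3 h and 8.87, 8.38 and 8.09 at 4 h. All arrays of 1 h lay above those of 0 h, all of 2 h above those of 1 h and all of 3 h above those of 2 h, and the 3 h and 4 h arrays overlapped. The first step was 1.61 (SE 0.33, adjusted p = 0.0072), the second 3.33 (SE 0.33, adjusted p = 3.0e-05), and 4 h exceeded 0 h by 5.69 (SE 0.33, adjusted p = 1.1e-07). With arrays centred on the hybridisation controls the first step was 0.43 (adjusted p = 0.50) and did not pass. Without both 1 h B and 1 h C, which leaves 1 array at 1 h, the first step was 0.97. All 0 h arrays of bath-10 lay below the background mark, so that the size of its rise is uncertain. bath-9, its neighbour in the genome, read 4.18, 4.16 and 4.25 at 0 h, 4.81, 4.75 and 5.07 at 1 h, 7.68, 8.38 and 8.01 at 2 h, 8.78, 8.14 and 8.27 at 3 h and 8.77, 8.12 and 7.92 at 4 h. The rise of bath-9 came between 1 h and 2 h, with a difference of 3.15 (SE 0.24, adjusted p = 2.9e-06), and its 2 h, 3 h and 4 h arrays overlapped. It was 16.8-fold higher at 4 h than at 0 h, by 4.07 (SE 0.24, adjusted p = 1.1e-07).

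bath-38 and bath-39 also rose, from 0 h arrays that all lay above the background mark. Neither was called higher at 3 h or at 4 h than at 2 h. bath-38 read 5.74, 6.58 and 6.42 at 0 h, 5.76, 4.38 and 5.82 at 1 h, 7.16, 7.07 and 7.19 at 2 h, 6.24, 7.52 and 8.0 at 3 h and 8.82, 8.65 and 8.42 at 4 h, with all 4 h arrays above all others and a difference of 2.38 (SE 0.44, adjusted p = 0.0018) between 4 h and 0 h. bath-39 read 5.12, 5.72 and 4.88 at 0 h, 4.12, 3.10 and 4.91 at 1 h, 6.00, 6.14 and 6.09 at 2 h, 6.39, 6.51 and 7.22 at 3 h and 6.66, 6.54 and 6.49 at 4 h. Its 4 h arrays exceeded its 0 h arrays by 1.32 (SE 0.37, adjusted p = 0.027), and leaving out 0 h A, 0 h C or any one of the 4 h arrays ended the call. Both genes were lower on average at 1 h than at 0 h, with overlapping arrays, and the difference of 2 h from 1 h was 1.82 (SE 0.44, adjusted p = 0.019) for bath-38 and 2.03 (SE 0.37, adjusted p = 0.0032) for bath-39. For bath-38 this step ended as a call without 1 h B or any one of the 2 h arrays. bath-20, close to background, also rose, by 0.65 (SE 0.12, adjusted p = 0.0018) from 0 h to 4 h. btb-1, which is annotated as a pseudogene, was not called over the 5 times, and its difference of 4 h from 0 h was 0.89 (SE 0.25, adjusted p = 0.026).

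The genes that fell were mainly bath genes present at 0 h, when embryos hold the transcripts laid down by the mother. bath-5 read 6.37, 7.47 and 7.43 at 0 h, 5.78, 5.0 and 6.91 at 1 h, 3.48, 3.72 and 3.45 at 2 h, 3.11, 3.02 and 2.86 at 3 h and 2.81, 2.98 and 3.43 at 4 h. Its 0 h and 1 h arrays overlapped, and every later array lay below them. Between 4 h and 0 h the log2 difference was -4.02 (SE 0.40, adjusted p = 1.2e-05), of uncertain size because the 4 h mean lay below the background mark. btb-19, the only btb gene among those that changed and were highest at 0 h, read 6.74, 7.66 and 7.20 at 0 h, 3.96, 3.47 and 3.65 at 1 h, 3.62, 3.11 and 3.14 at 2 h, 3.72, 3.76 and 4.05 at 3 h and 3.98, 3.62 and 3.42 at 4 h. It was low by 1 h, with every later array below all 0 h arrays and a difference of -3.51 (SE 0.24, adjusted p = 7.5e-07) between 1 h and 0 h, which is 11.4-fold.

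bath-2 and bath-36 also fell. bath-2 read 5.37, 6.99 and 6.44 at 0 h, 5.39, 6.84 and 5.67 at 1 h, 4.17, 3.85 and 3.99 at 2 h, 4.32, 3.98 and 4.19 at 3 h and 4.29, 4.40 and 3.17 at 4 h. Its 0 h and 1 h arrays overlapped, the difference of 2 h from 1 h was -1.97 (SE 0.45, adjusted p = 0.013), and that of 4 h from 0 h was -2.31 (SE 0.45, adjusted p = 0.0024). The step from 1 h to 2 h ended as a call without 2 h B. Centring on the hybridisation controls also ended it, at -1.51 (adjusted p = 0.30). Without both 1 h B and 1 h C, which leaves 1 array at 1 h, the step was -1.39. bath-36 read 6.17, 7.54 and 7.46 at 0 h, 6.45, 6.50 and 6.54 at 1 h, 5.85, 7.34 and 6.32 at 2 h, 4.97, 5.36 and 3.76 at 3 h and 4.51, 5.26 and 4.15 at 4 h. Its arrays of 0 h, 1 h and 2 h overlapped and lay above all 3 h and 4 h arrays, with -2.42 (SE 0.49, adjusted p = 0.0037) between 4 h and 0 h. Its difference of 4 h from 2 h, -1.87 (SE 0.49, adjusted p = 0.046), ended as a call in 10 of 15 cases in which 1 array was left out.

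bath-4 and bath-15 ended near the background mark. bath-4 read 3.93, 5.33 and 5.81 at 0 h, 4.25, 4.06 and 4.46 at 1 h, 3.47, 3.19 and 3.17 at 2 h, 3.37, 3.42 and 3.27 at 3 h and 3.48, 3.13 and 3.23 at 4 h. The 0 h and 1 h arrays overlapped, those of 2, 3 and 4 h lay below both, and 4 h differed from 0 h by -1.74 (SE 0.35, adjusted p = 0.0031). bath-15 read 3.77, 5.33 and 4.83 at 0 h, 3.18, 2.77 and 4.24 at 1 h, 2.41, 2.35 and 2.82 at 2 h, 2.40, 2.80 and 2.77 at 3 h and 2.88, 3.09 and 2.55 at 4 h. Its 0 h and 1 h arrays overlapped, and all later arrays lay below the 0 h arrays. The difference of 2 h from 0 h was -2.12 (SE 0.40, adjusted p = 0.002) and that of 4 h from 0 h -1.81 (SE 0.40, adjusted p = 0.006). bath-1 and bath-29 fell by smaller steps near background, with differences of -1.07 (SE 0.16, adjusted p = 0.00034) and -0.57 (SE 0.14, adjusted p = 0.01) between 4 h and 0 h.

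bath-42 had the highest mean signal over all arrays among the probe sets of the group. It read 10.45, 10.39 and 10.63 at 0 h, 10.28, 8.89 and 10.14 at 1 h, 9.44, 9.60 and 9.43 at 2 h, 8.32, 8.26 and 9.54 at 3 h and 9.39, 8.83 and 8.92 at 4 h. The 0 h arrays lay above all later arrays, and 4 h differed from 0 h by -1.44 (SE 0.37, adjusted p = 0.016). Leaving out 0 h C, 4 h B or 4 h C ended the call of this difference. The call of bath-42 over the 5 times ended without any one of the 0 h arrays, 3 h A or 3 h B. A second probe set of bath-42 gave -1.87 (adjusted p = 0.026) and was not called over the 5 times (adjusted p = 0.079), and both carry the suffix for possible cross-hybridisation. bath-41, which was not called over the 5 times (adjusted p = 0.076), read 8.20, 7.87 and 7.74 at 0 h, 7.71, 5.67 and 8.25 at 1 h, 6.31, 6.97 and 6.81 at 2 h, 7.26, 6.95 and 7.58 at 3 h and 6.53, 5.56 and 5.12 at 4 h. Its 4 h arrays lay below all 0 h arrays, and 1 h B lay below both other 1 h arrays. Its difference of 4 h from 0 h was -2.20 (SE 0.54, adjusted p = 0.012) and ended as a call without 4 h C. bath-44 was also not called over the 5 times (adjusted p = 0.10) and read 6.39, 6.28 and 6.92 at 0 h, 5.36, 3.57 and 4.60 at 1 h, 3.96, 5.95 and 5.58 at 2 h, 5.29, 4.98 and 4.74 at 3 h and 5.55, 4.56 and 3.72 at 4 h. All later arrays lay below the 0 h arrays, and those of 1 h to 4 h overlapped. Its difference of 1 h from 0 h, -2.02 (SE 0.57, adjusted p = 0.043), ended as a call in 10 of 15 cases with 1 array left out. Its difference of 4 h from 0 h was -1.92 (SE 0.57, adjusted p = 0.036), which ended without any one of the 0 h arrays, 4 h B or 4 h C. A second probe set of bath-44 gave -0.95 (SE 0.26, adjusted p = 0.039) for 1 h and -0.72 (SE 0.26, adjusted p = 0.089) for 4 h against 0 h, and the latter did not pass.

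**Figure D4:**
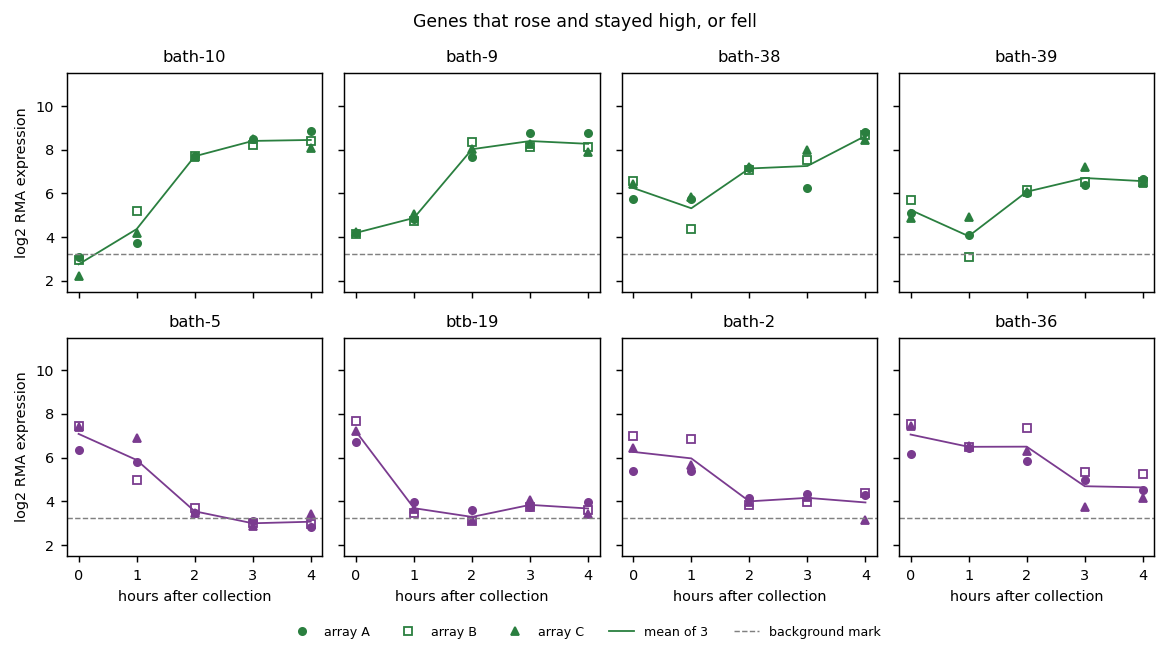
Level on each array (log2, vertical axis) against hours of incubation (horizontal axis) for genes that rose and stayed high and for genes that fell, with points for arrays, lines through the means of 3 arrays and the background mark. bath-9 and bath-10 rise by 2 h and stay high, btb-19 is low from 1 h onward, and bath-5 and bath-2 are low from 2 h onward.

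The math genes remained near background. Their means over 15 arrays ran from 2.17 to 4.35 with a median of 2.51, and the highest value of any math gene on any array was 4.82. The ranges of their time means ran from 0.03 to 0.74. Single comparisons with 0 h called math-29, which is annotated as a pseudogene, at 1 h, by 0.56 (SE 0.14, adjusted p = 0.023). They also called math-28 and math-37 at 3 h, by 0.74 (SE 0.19, adjusted p = 0.018) and 0.46 (SE 0.14, adjusted p = 0.04). None of these genes had a call over the 5 times. A second probe set of math-37 gave 0.18 (SE 0.12, adjusted p = 0.43) for 3 h against 0 h, which did not pass. math-33, the relative of the deubiquitinase USP7, had means of 4.11, 4.25, 4.49, 4.53 and 4.38 from 0 h to 4 h with an adjusted p of 0.63 over the 5 times. Leaving out single arrays brought some math genes into the changed set. These were math-29 without 1 h A, math-28 without 3 h C, and math-37 and math-38 without 2 h A. In these cases math-29 and math-28 were also called transient.

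Of the 80 genes that were not called over time, 66 had no time mean above the background mark, and the ranges of their means ran from 0.03 to 0.57. math-29 and math-37, called in single comparisons with 0 h, are among these 66. The other 14 had ranges of 0.29 to 2.20. bath-40 and bath-47 lay in the first set, with means of 2.88, 3.03, 2.75, 2.86 and 2.86 from 0 h to 4 h for bath-40 and 2.89, 3.18, 2.96, 2.91 and 3.05 from 0 h to 4 h for bath-47. The genes nearest to the mark were bath-15 and btb-5 below it, at 3.21 and 3.10, and btb-14 and btb-15 above it, both at 3.25. btb-15 is annotated as a pseudogene. bath-43 had no probe set of its own among those used here.

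Counted by comparison, calls in both directions were found in every step of the first 2 h. Between 0 h and 1 h 10 rose and 4 fell, against 3.30% and 6.08% of all probe sets. Between 1 h and 2 h 9 rose and 3 fell, against 6.00% and 3.25%. At 2 h against 0 h, 11 were higher and 7 lower, against 7.25% and 8.53%. 7 of the 11 higher ones were among the 18 btb genes. From 2 h to 4 h 8 fell, 5 of them btb genes, against 3.40%. In the same comparison 0 rose by limma, against 2.21% of all probe sets. At an unadjusted p under 0.05, 5 were higher there, and the share of all probe sets at that threshold was not computed. From 2 h to 3 h 7 fell and from 3 h to 4 h 3 fell, against 1.90% and 0.692%. At 4 h against 1 h, 5 were higher and 9 lower, against 5.89% and 5.09%. Over the whole course, 4 h against 0 h, 8 were higher and 11 lower, against 7.11% and 9.57%, and the 0 h arrays are shared by the comparisons with 0 h.

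The median log2 difference of all 103 genes was 0.06 for 2 h against 0 h, where that of all probe sets was 0.02, and 0.09 for 4 h against 0 h, where that of all probe sets was 0.09. Most of the 103 genes entering these medians lay below the background mark.

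In the gene table of assembly WBcel235, several changed genes lie close together, a feature that the choice of genes did not use and that was looked at after their values were seen. btb-12 and btb-13 are adjacent, bath-9 and bath-10 are adjacent, and btb-6, btb-8 and btb-9 lie in a single run with btb-7 and math-29. btb-6 and btb-8 are separated by 2 genes, fbxb-48 and fbxb-5. The adjacent gene btb-7 had time means of 3.57, 3.32, 3.30, 3.28 and 3.46 from 0 h to 4 h and was not called over time (adjusted p = 0.83). bath-33 lies beside bath-26, bath-46 and bath-47, of which none was called over time. Related neighbours can share sequence. Of the genes above, btb-10, bath-31, bath-38, bath-41 and bath-42 were among those read by probe sets whose suffix marks possible cross-hybridisation.

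Many neighbours of the btb genes that peak at 2 h were F-box B genes (fbxb), which encode substrate adaptors of the SCF ubiquitin ligases. The 4 genes on either side of btb-6, btb-8, btb-9, btb-10, btb-11, btb-12 and btb-13 included 24 measured genes outside the group, and 8 of these were transient (33.3%). All 8 were among the 10 measured fbxb genes of these flanks. For 2 h against 0 h their log2 differences ran from 2.21 (SE 0.27, adjusted p = 7.5e-05) for fbxb-11 to 6.67 (SE 0.38, adjusted p = 7.2e-08) for fbxb-40, and fbxb-41 gave 6.66 (SE 0.46, adjusted p = 4.1e-07). The probe sets of fbxb-40, fbxb-41 and fbxb-15 carry the suffix for possible cross-hybridisation. fbxb-39 and fbxb-21 did not pass, at 0.54 (SE 0.28, adjusted p = 0.31) and 0.67 (SE 0.42, adjusted p = 0.44).

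The fbxb genes away from btb genes had a like share of transient genes. Of 95 fbxb genes measured in all, 74 were transient (77.9%), and of the 85 elsewhere 66 were (77.6%). Around the other 16 changed genes of the group, 62 flanking genes were measured and 2 were transient (3.23%), near the 3.10% of all probe sets. 1 of these is sdz-12, named as a zygotic gene that depends on the transcription factor SKN-1, which lies directly beside bath-31. Its mean rose from 3.29 at 0 h to 5.63 at 1 h and was 3.66 at 2 h, and bath-31 also had its highest mean at 1 h. The other is ttc-36, near bath-38, whose mean was highest at 3 h, at 5.79, while that of bath-38 was highest at 4 h.

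**Figure D5:**
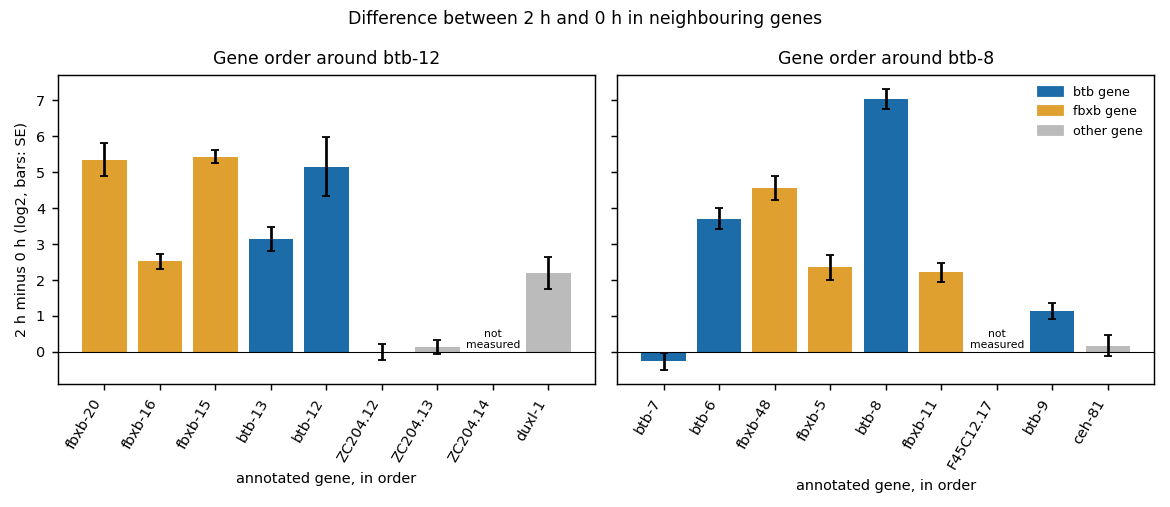
Log2 difference of 2 h from 0 h (vertical axis) for the genes within 4 places of btb-12 and of btb-8, in their order in the gene table, with error bars for the standard error. The fbxb genes beside btb-12 and btb-13 and those beside btb-8 were higher at 2 h, and btb-7 did not pass the test.

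The ligase to which BTB adaptors belong was followed through a list of its core and of the NED-8 pathway, of which 13 of 15 genes were measured. cul-3 itself, the cullin, had means of 3.51, 3.32, 3.33, 3.67 and 3.39 from 0 h to 4 h and was not called over time (adjusted p = 0.77). Its probe set carries the suffix for possible cross-hybridisation. The cul-3 signal averaged 3.44, near the background mark, with 13 of 15 arrays above the mark. Whether the cul-3 transcript was steady cannot be told from so low a signal. Of the 13 measured genes of the list, 0 rose and 6 fell between 2 h and 4 h, with 3.40% of all probe sets called lower there. ned-8 read 7.20, 7.48 and 7.57 at 0 h, 7.71, 8.17 and 7.71 at 1 h, 8.95, 8.41 and 8.22 at 2 h, 7.19, 6.97 and 7.36 at 3 h and 6.81, 6.55 and 6.88 at 4 h. It was higher at 2 h than at 0 h by 1.10 (SE 0.20, adjusted p = 0.0016) and its 4 h level differed from 2 h by -1.78 (SE 0.20, adjusted p = 8.0e-05). dcn-1, a neddylation factor, differed by 1.59 (SE 0.28, adjusted p = 0.0013) and -2.21 (SE 0.28, adjusted p = 0.00023) in the same comparisons, and both genes were transient. The others that fell between 2 h and 4 h were rfl-1 and ula-1, which form the enzyme that activates NED-8, the RING subunit gene rbx-1 and the COP9 signalosome gene csn-1, with differences of -1.65 (SE 0.32, adjusted p = 0.0069), -1.68 (SE 0.42, adjusted p = 0.035), -1.03 (SE 0.27, adjusted p = 0.042) and -1.46 (SE 0.37, adjusted p = 0.035). The probe sets of ula-1 and csn-1 also carry the suffix for possible cross-hybridisation. ula-1 was not called over the 5 times (adjusted p = 0.10), and csn-1 was close to the threshold (adjusted p = 0.0498). cand-1, also on the list, was higher at 3 h than at 2 h by 0.81 (SE 0.19, adjusted p = 0.045). Its difference of 4 h from 2 h was 0.22 (SE 0.19, adjusted p = 0.68) and did not pass.

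The known MATH and BTB adaptor gene mel-26, outside the numbered families, fell in the first hour, and its pathway's katanin gene mei-2 fell in the second. mel-26 differed by -2.51 (SE 0.63, adjusted p = 0.023) between 1 h and 0 h and by -3.70 (SE 0.63, adjusted p = 0.00094) between 4 h and 0 h. mei-2 differed by -0.53 (SE 0.32, adjusted p = 0.37) between 1 h and 0 h, which did not pass, by -3.31 (SE 0.32, adjusted p = 2.3e-05) between 2 h and 1 h and by -4.70 (SE 0.32, adjusted p = 4.1e-07) between 4 h and 0 h. mei-1, its partner and the substrate of MEL-26, differed by -1.30 (SE 0.57, adjusted p = 0.16) between 4 h and 0 h, which did not pass. Among 12 measured BTB or MATH genes with other names, 0 were transient, and between 0 h and 4 h 2 rose and 1 fell, against 3.10% transient, 7.11% higher and 9.57% lower among all probe sets. kel-1, a Kelch gene, rose by 1.86 (SE 0.39, adjusted p = 0.0045) and inso-1 by 1.21 (SE 0.25, adjusted p = 0.0042), and the 1 that fell was mel-26.

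The grouping of 1 h B and 1 h C bears on all values at 1 h. With both arrays left out, 67 of the 75 called differences examined kept their call, and with both placed by their tags 30 did. When arrays were centred on ribosomal protein genes instead, the differences of btb-8 and bath-39 between 4 h and 0 h and those of btb-9 at 2 h changed sign. The part of array 1 h B, with its yolk transcripts, in the values at 1 h was not tested beyond leaving it out.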

How the data were processed

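RNA of 15 embryo samples was measured on Affymetrix C. elegans arrays. The authors' deposited table held log2 values. Their method was RMA, of a version not stated, per the submitters' processing notes, and it corrects background, normalizes between arrays and compresses low values. Values ran from 1.77 to 14.2, and 0 columns were unassigned. The 77 control probe sets were left out, and genes were named from probe sets with 1 symbol in the platform annotation, which names no genome build. A time factor was fitted to all 15 arrays and 22548 probe sets in limma 3.58.1 under R 4.3.3 (lmFit, eBayes), with Benjamini-Hochberg adjustment per comparison, and all adjusted p-values are limma's. SE is that of the model, with a median of 0.19 for 4 h against 0 h. The number of arrays limits the precision. Whether samples of a time come from different mothers or days is not stated in the labels; p-values therefore reflect only how far these samples scatter, which may be technical variation.

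Named were the transient genes, the 20 largest ranges among changed genes, the 5 brightest, genes with a known role and those nearest the background mark. bath-1, bath-20, bath-29, btb-1, btb-5, btb-7, math-28, math-29, math-37 and math-38 were named after their values were seen, as were the genes named from lists and flanks. The genes and lists were chosen with earlier results of these data known. Same-letter arrays of different times deviated together no more than others (mean r -0.003 against 0.005), so letters were not used as pairs. The procedure was tested on simulated data. Alternatives were the time tags, other centrings, a background filter, probe sets without a cross-hybridisation suffix, a letter block and arrays left out.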

Additional observations from a re-analysis of the deposited data

How the results depend on the processing

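Under the alternatives that left out 1 array at a time, 21 to 25 genes changed, 7 to 9 were transient, and 8 to 10 rose and 3 to 6 fell from 0 h to 1 h. Likewise 7 to 9 rose and 2 to 4 fell from 1 h to 2 h, 0 to 2 rose and 7 to 9 fell from 2 h to 4 h, and 6 to 10 were higher and 8 to 11 lower at 4 h than at 0 h. With arrays grouped by time tags, 14 changed, 2 were higher and 1 lower at 1 h than at 0 h, 0 were higher and 0 lower at 2 h than at 1 h, 5 fell from 2 h to 4 h and 4 were higher at 4 h than at 0 h, and this grouping has 1 array at 1 h and changed 9.73% of all probe sets. Centred on ribosomal protein genes, which moved the median of all probe sets by -1.32 at 2 h and -1.24 at 4 h against 0 h, 103 changed, as did 95.7% of all probe sets, 10 fell from 0 h to 1 h, 90 fell from 1 h to 2 h, 1 rose from 2 h to 4 h, and 4 were higher and 93 lower at 4 h than at 0 h. That centring turned the 4 h difference from 0 h to -0.010 for bath-39 and -0.075 for btb-8, and the 2 h difference of btb-9 to -0.18 from 1 h and -0.21 from 0 h. Centred on hybridisation controls, 5 rose and 10 fell from 0 h to 1 h, 0 fell from 1 h to 2 h, 5 fell from 2 h to 4 h and 2 were higher at 4 h than at 0 h. With only genes above the background mark, 1 rose from 2 h to 4 h. Without both doubtful 1 h arrays, an alternative chosen after seeing the data, 1 fell from 0 h to 1 h and 1 rose from 2 h to 4 h. The replicate block left 23 changed and 7 transient genes and ended only the calls of bath-44, at adjusted p = 0.075 for 1 h and 0.061 for 4 h against 0 h. Probe sets without the suffix left 5 transient genes, as btb-10 and bath-31 have none. Of 75 called differences, 74 kept their call with median centring, 53 with hybridisation controls and 69 to 74 with 1 array left out. The cause of these shifts was not tested. Low signal limits most of all the math genes.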
